A study of Mus musculus with 9 samples.

Results

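The transcription factors that specify endoderm were followed here as a set of 9 genes, Sox17, Foxa1, Foxa2, Foxa3, Hhex, Hnf4a, Gata4, Gata5 and Gata6, out of 15965 genes that had a probe set with a single symbol. Every probe set annotated to 1 of these genes and to no other was taken, which gave 17 of 36899, with 12 on array design A, 2 on B and 3 on C. No probe set with several symbols included a member. Total RNA of whole mouse embryos at embryonic day 7.5 was profiled as 3 pools, each hybridised to 1 array of each of the 3 Affymetrix murine genome U74 version 2 designs. The conditional knockout was a pool of about 50 embryos that lost beta-catenin (Ctnnb1) where the cytokeratin 19 promoter drives Cre recombinase. The floxed/deleted pool carried 1 floxed and 1 deleted allele of the gene, and the wild type/floxed pool carried 1 wild-type and 1 floxed allele. The labels do not give the strain, the number of control embryos, their Cre status, or whether the arrays of a pool shared one RNA preparation. There was 1 array per pool and design, so no difference below has a replicate check, and no test was run.

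Endoderm arises more than once in the early mouse embryo. The visceral endoderm derives from the primitive endoderm of the blastocyst and feeds the embryo before there is a placenta, whereas the definitive endoderm leaves the primitive streak during gastrulation and forms the gut. Sox17, Foxa2 and their partners act under Nodal signals in definitive endoderm, and beta-catenin is known to act with them there. Hnf4a, Gata4 and Gata6 are required in visceral endoderm. The split used below, definitive endoderm factors (Sox17, Foxa1, Foxa2, Foxa3) against factors shared with visceral endoderm (Hhex, Hnf4a, Gata4, Gata5, Gata6), follows their best known use at this stage and is not exclusive. Sox17 and Foxa2 are also active in parts of the visceral endoderm, Hhex marks anterior definitive endoderm too, and the Gata factors are shared with the heart-forming mesoderm.

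Signals were linear intensities, and values under the pooled median of a design (57.3 on A, 90 on B, 80.9 on C) were raised to it before a fold was taken, a working limit that says nothing of detection. A fold with 1 side at the floor is written "at least". Measured probe sets had a value above the floor in 1 or more pools, which held for 13 of the 17 member probe sets and for 7 on all 3 arrays. The scale of ordinary differences came from the probe sets of a design that exceeded the floor in every pool and had a mean signal between 100 and 300, as both brighter Sox17 probe sets, both Gata4 probe sets and the brightest of Gata6 did. The median fold between the 2 control pools was 1.21 on design A, 1.30 on B and 1.46 on C, and 10% of these probe sets differed by more than 1.65-fold, 1.98-fold and 2.67-fold. The beta-actin ratio of 5′ to 3′ signal, a measure of RNA integrity, was lowest in the knockout on each design, for example 0.570 against 0.655 and 0.696 on A. The same ratio for Gapdh was not lowest in the knockout on any design. On C it was 0.878 in the knockout, 0.912 in floxed/deleted, and 0.825 for wild type/floxed. The 2 control transcripts thus did not rank the pools alike. Ctnnb1 itself stood at 1376 in the knockout, 1509 in floxed/deleted, and 1773 for wild type/floxed. In bulk RNA, fewer cells of a type and less RNA per cell cannot be told apart.

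**Figure D1:**
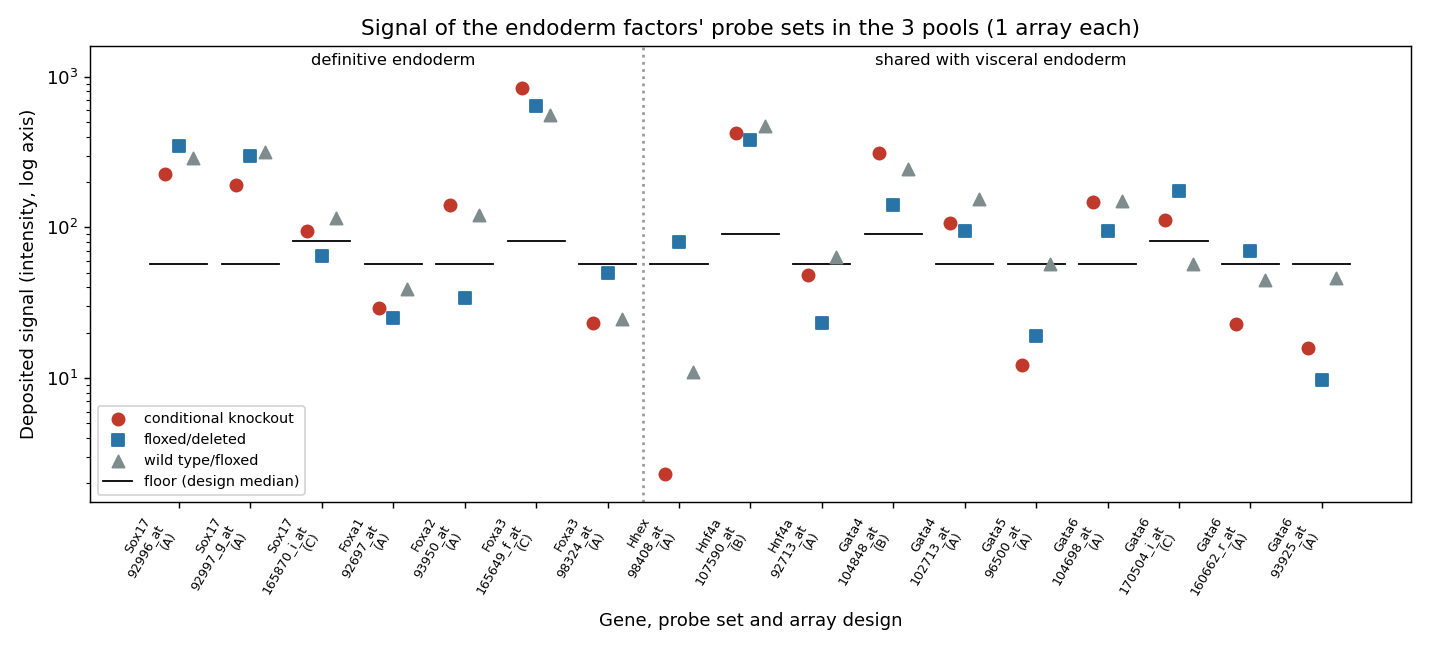
Deposited signal on a log axis for the 17 probe sets of the 9 endoderm factors, 1 point per pool, with a black line at the floor of the array design. The floxed/deleted points for Foxa2 and for the brightest Gata4 and Gata6 probe sets lie under both other pools, the knockout points of the 2 brighter Sox17 probe sets lie under both controls, and 4 probe sets lie below the floor in all pools.

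Among the definitive endoderm factors, Sox17 was lowest in the knockout on its brighter probe sets, and Foxa2 was lowest in the floxed/deleted pool. Sox17 is an HMG-box factor (chromosome 1, 4490928 to 4497426 in GRCm38.p6) that starts the gut endoderm program. Its brightest probe set, on design A, read 225 in the knockout, 346 in floxed/deleted, and 291 for wild type/floxed. There the knockout lay 1.29-fold under the nearer control, more than the median fold between the control pools and less than the 1.65-fold that 10% exceeded. A second design A probe set, designed from the same transcript record and so not an independent reading, read 190 in the knockout, 297 in floxed/deleted, and 316 for wild type/floxed. On it the knockout lay 1.56-fold under the nearer control, and 1.41-fold with arrays set to equal medians. It lay 1.665-fold under wild type/floxed. Between these 2 pools, 10% of such design A probe sets differed by more than 1.671-fold, so this reading did not pass that mark. The controls stood in opposite order on the 2 probe sets, with the knockout under both each time. The third Sox17 probe set, on design C, has suffix i, which marks an incomplete probe choice. It read 94.7 in the knockout, between 64.3 in floxed/deleted, which is under the floor, and 116 for wild type/floxed. The position of the knockout was thus not shared by all 3. On this dim probe set the knockout was at least 1.17-fold above floxed/deleted and 1.22-fold under wild type/floxed, so it places the knockout only weakly.

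Foxa2, a forkhead factor of the definitive endoderm, node and notochord (chromosome 2, 148042877 to 148046969), had 1 probe set, which read 141 in the knockout, 33.8 in floxed/deleted, and 122 for wild type/floxed. The knockout and the wild type/floxed pool were within 1.16-fold of each other. Floxed/deleted lay below the floor and at least 2.12-fold under both. With a floor at the 70th percentile of the design, 134.1, the values of floxed/deleted and of wild type/floxed both lay under it and no difference between them remained.

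Foxa1, a related pioneer factor of gut endoderm, stood below the floor in all pools, at 29.1 in the knockout, 25.2 in floxed/deleted, and 39.3 for wild type/floxed. Foxa3, best known from gut and liver, gave readings that did not match each other. The design A probe set lay below the floor throughout, at 23.2, 50.2 and 24.6 in the same order. The design C probe set read 844 in the knockout, 636 in floxed/deleted, and 554 for wild type/floxed, 1.33-fold above the nearer control. Its suffix f marks sequence shared within a family of transcripts, so this signal may not be that of Foxa3 alone.

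Among the factors shared with visceral endoderm, none stood 1.5-fold apart in the knockout, and Gata4 and Gata6 were lowest in the floxed/deleted pool on their brightest probe sets. Hnf4a, the nuclear receptor that drives the secretory program of visceral endoderm and later liver (chromosome 2, 163506811 to 163572907), read 422 in the knockout, 380 in floxed/deleted, and 469 for wild type/floxed on design B. The knockout lay between the controls, at a log2 difference of 0.00043 from their mean. On design A it read 48, 23.1 and 63.5 in the same order, with wild type/floxed alone above the floor. Floxed/deleted was the lowest pool on design B, and on design A its order against the knockout lies below the floor.

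Gata4, a zinc-finger factor of visceral endoderm and heart (chromosome 14, 63198914 to 63271712), read 310 in the knockout, 142 in floxed/deleted, and 244 for wild type/floxed on design B. Floxed/deleted was 1.72-fold lower than the nearer pool, less than the 1.98-fold exceeded by 10% between the controls on B, and 1.45-fold with the floor at the 70th percentile. The design A probe set read 106, 94.5 and 155 in the same order, with floxed/deleted lowest again, by 1.12-fold under the knockout. That is less than the median fold of 1.23 between these 2 pools over such design A probe sets. The knockout was the highest pool on B, 1.27-fold above wild type/floxed, and below wild type/floxed on A, so its position differed between the 2 probe sets while that of floxed/deleted did not.

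Gata6, which establishes primitive endoderm and acts in heart and gut, had 4 probe sets. The brightest, on design A, read 148 in the knockout, 94.2 in floxed/deleted, and 151 for wild type/floxed, so floxed/deleted was 1.57-fold lower than the nearer pool, the knockout, and 1.60-fold lower than wild type/floxed, less than the 1.65-fold exceeded by 10% between the controls. The knockout and wild type/floxed were nearly equal there. The other readings disagreed with it. The design C probe set, with suffix i, read 112 in the knockout, 175 in floxed/deleted, and 57.2 for wild type/floxed, which put floxed/deleted 1.56-fold higher than the knockout and at least 2.16-fold higher than wild type/floxed. A design A probe set with suffix r read 22.7, 69.3 and 44.6 in the same order, with floxed/deleted alone above the floor, and the fourth, also on A, lay below the floor in all pools at 15.8, 9.7 and 46.1. Suffixes i and r mark an incomplete probe choice and relaxed design rules. Which probe sets report the transcript was not tested.

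Gata5, a relative of Gata4 active in endoderm and endocardium, lay below the floor in all pools at 12.3 in the knockout, 19.0 in floxed/deleted, and 56.9 for wild type/floxed, the last just under the floor. Hhex, a homeobox factor of anterior visceral endoderm and of the foregut and liver bud (chromosome 19, 37434841 to 37440731), read 2.3 in the knockout, 80.0 in floxed/deleted, and 10.9 for wild type/floxed. Floxed/deleted was thus at least 1.4-fold higher than both others, and the order of the remaining pools lies below the floor.

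**Figure D2:**
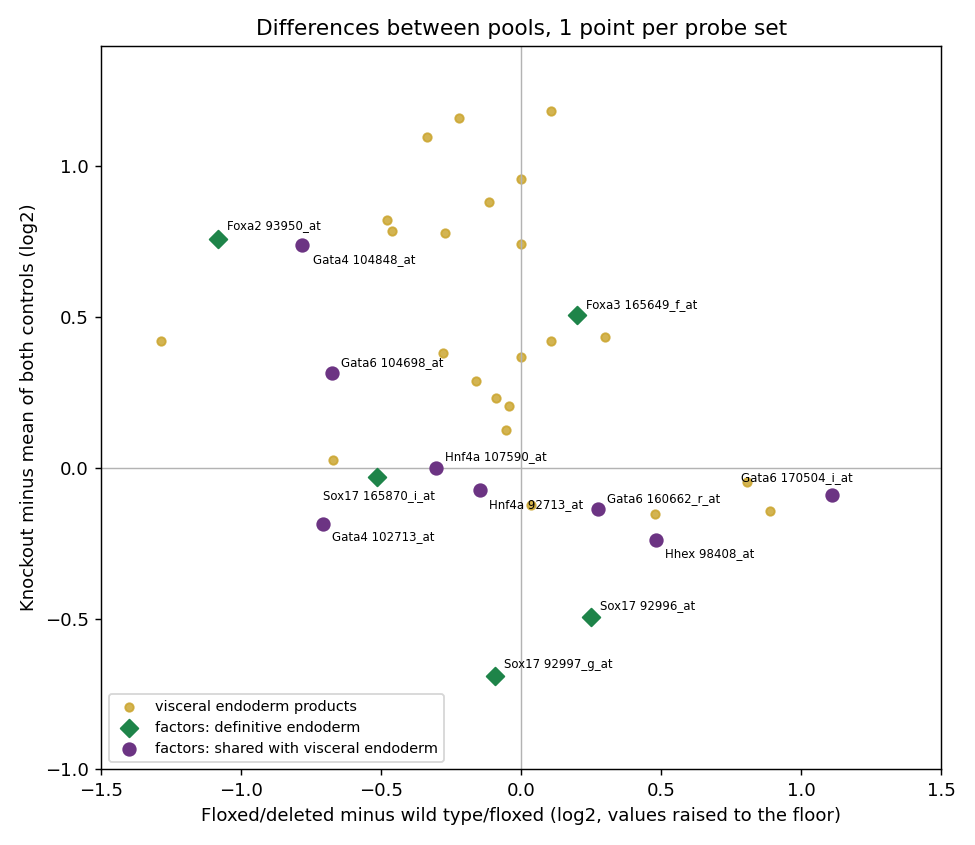
Each point is a measured probe set, with the log2 difference between the control pools on the horizontal axis and the log2 difference of the knockout from the mean of the controls on the vertical axis. Foxa2, both Gata4 probe sets and the brightest Gata6 probe set lie to the left, where floxed/deleted was the lower control, the other 2 measured Gata6 probe sets lie to the right, the brighter Sox17 probe sets lie lowest, and visceral endoderm products (1 probe set per gene) lie mostly above 0.

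Upstream sequence was looked at for the forkhead and Gata letters because Foxa2, Gata4 and Gata6 were low in the same pool on their brightest probe sets, and for Tcf/Lef letters because these factors carry beta-catenin to DNA. RefSeq sequence of GRCm38.p6 was searched for Foxa1, Foxa2, Foxa3, Hhex, Hnf4a and Gata5, 6 members with 9 start sites, over the 250 bases before each start. Sox17, Gata4 and Gata6 were not searched. Both strands were searched. The motif of Gata factors, with the letters AGATAA, was found before 1 start of Foxa2, at 183 to 178 bases, and before 1 start of Hnf4a, at 52 to 47 bases, against 9.99% of all 32851 upstream sequences of that length. The letters TGTTTAC, a forkhead motif, were found before Foxa1, at 141 to 135 bases, against 3.17% of all. The letters CTTTGAT, a Tcf/Lef motif, were not in the 9 windows of these 6 members and were in 3.21% of all. The motifs did not overlap. A match describes the letters and shows no binding. The Foxa1 and Foxa2 stretches lie inside the annotated genes (chr12:57546234-57546263 and chr2:148045630-148045659, minus strand) and the Hnf4a stretch lies before its gene (chr2:163506607-163506810, plus strand). They are written 5′ to 3′ with the motif, or its reverse complement for Foxa1, in capitals:
Foxa1: tatactgctttGTAAACAaagtgagggcca
Foxa2: ctgttagccttgAGATAAtattaactttgt
Hnf4a: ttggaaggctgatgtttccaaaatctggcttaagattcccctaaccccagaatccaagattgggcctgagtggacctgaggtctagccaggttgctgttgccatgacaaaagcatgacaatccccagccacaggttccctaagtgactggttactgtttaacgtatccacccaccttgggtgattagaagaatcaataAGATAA

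The separation of the 2 groups of factors was not sharp in any pool. Counting all 13 measured member probe sets, 1 was at least 1.5-fold lower than both controls in the knockout (Sox17) and 0 were higher, while 5.63% of all measured probe sets were lower and 7.35% higher by that rule. In floxed/deleted, 3 were lower than both other pools (Foxa2, Gata4, Gata6) and 1 was higher (Gata6), against 5.69% lower and 8.86% higher of all. In wild type/floxed 0 were lower and 0 higher, against 5.66% and 8.21% of all. The 3 low readings in floxed/deleted came from 1 definitive endoderm factor and 2 shared factors. Members were chosen with earlier results of these data known, probe sets of 1 gene are not independent, and Gata6 counts in both directions. The 3 of 13 can therefore not be read as an excess over the share of all probe sets. Among measured probe sets with a mean signal of 100 to 300, 4.38% on design A and 8.99% on design B were at least 1.5-fold lower in floxed/deleted by the same rule. Under 100 on design A, where Foxa2 falls, 2.12% were. The shares as low as each of these members were not computed. With the floor at the 70th percentile none of the 3 passed, and at a 2-fold threshold 1 did, Foxa2. The shares over all probe sets were not computed for these 2 settings.

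Taken by rank of the deposited values alone, floxed/deleted was the lowest pool for 9 of the 17 member probe sets and wild type/floxed the highest for 9, where over all probe sets these shares were 32.5% and 33.5%. For the shared factors floxed/deleted was lowest for 6 of 10 and for the definitive endoderm factors for 3 of 7. Probe sets of 1 gene share a target, and several of these ranks lie below the floor. With 1 probe set per gene, the median log2 difference of the knockout from the mean of the controls was 0.51 over the 3 measured definitive endoderm factors and 0.16 over the 4 measured shared factors, against -0.02 over all 12442 measured genes. Between floxed/deleted and wild type/floxed the medians were 0.20 and -0.49, against 0 over all genes. The value of 0.51 is that of the Foxa3 probe set of shared sequence, which lies between Sox17 and Foxa2. It was 0.13 without any probe set of suffix s, f, g, i or r, and 0.0066 with Foxa2 among the shared factors. The 0.16 of the shared factors kept its sign in 9 of 13 alternatives and ranged from -0.13 to 0.40, and the control median of 0.20 kept its sign in 5 of 11.

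At the brightest probe set of each gene, none of the 10 measured of 15 listed Nodal pathway and streak genes was 1.5-fold apart in any pool, while over all genes, at the brightest probe set, 5.77% were lower and 6.49% higher in the knockout, 5.59% and 7.47% in floxed/deleted, and 5.60% and 6.56% in wild type/floxed. Eomes, a T-box factor that acts upstream of definitive endoderm in the streak, read 131 in the knockout, 98.7 in floxed/deleted, and 67.5 for wild type/floxed. Lhx1, a homeobox factor of the anterior streak, read 230, 177 and 134 in the same order. Both were highest in the knockout on these probe sets, but the other Eomes probe set read 55.1, 45.3 and 83.7, with wild type/floxed alone above the floor. Smad3, a transducer of Nodal signals, read 207 in the knockout against 275 and 328. A dimmer probe set of Acvr2b, an activin receptor gene, read 30 in the knockout against 291 and 322 on design C, while its brightest read 2368 against 2188 and 2239.

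Other definitive endoderm genes were mixed. Of 12 measured, 2 were at least 1.5-fold lower in the knockout (Pyy and Shh), 1 was higher (Nepn), and 1 was lower in wild type/floxed (Cdh1). Nepn, a marker of midgut endoderm, read 205 in the knockout with both controls below the floor on design C, at least 2.53-fold higher. Pyy, a peptide hormone gene seen early in foregut endoderm, read 50.7 in the knockout, 210 in floxed/deleted, and 160 for wild type/floxed, at least 1.78-fold lower. Cdh1, which encodes E-cadherin, read 153, 149 and 70.1 in the same order. Cer1, a secreted antagonist made in anterior endoderm, read 169 in the knockout against 194 and 222, and Trh, a hormone gene of early endoderm, read 653 against 546 and 606. Summed over the 5 fixed definitive endoderm markers the signal was 1133 in the knockout, 1034 in floxed/deleted, and 1078 for wild type/floxed.

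Of 23 measured products of visceral endoderm, 7 were at least 1.5-fold higher and 0 lower in the knockout, with a median log2 difference of 0.42. By any amount 17 were highest and 1 lowest there, the receptor gene Lrp2, whose other probe set was highest in the knockout (367 against 181 and 223). Of the 4 measured shared factors, 0 were 1.5-fold higher in the knockout and 1 was highest by any amount, Gata4. Over all 12442 measured genes, 4155 were highest in the knockout by any amount and 6.49% were 1.5-fold higher. With 4 genes the counts of the shared factors cannot be told apart from these shares. All 8 fixed visceral endoderm markers were highest in the knockout. Their summed signal was 35544 against 17515 in floxed/deleted, and 19990 for wild type/floxed. Most of each sum came from Apoa1 (16068, 7336 and 6813 in the same order) and Amn (12923, 6390 and 8806). Ttr, Apob and Rbp4 were 1.14-fold, 1.18-fold and 1.22-fold above the nearer control. Amn, Cubn and Apoa4 were 1.47-fold, 1.498-fold and 1.90-fold above it. Afp read 74 in the knockout against 12.8 and 9.7, both under the floor, and was not measured on a second probe set. Among the 23 products the largest folds were those of Apoa1 (2.19-fold), Apom (2.07-fold) and Trf (at least 1.94-fold), which encode lipoprotein and iron carriers. Known targets of Hnf4a gave 4 of 12 measured genes higher and 0 lower, with a median of 0.41, but 8 of the 12 are also in the product list, all 4 higher ones among them (Apoa1, Apoa4, Apoc2 and Trf), so this count repeats that of the products. Mttp, the lipid transfer protein that loads apolipoprotein B, read 221 in the knockout, 119 in floxed/deleted, and 152 for wild type/floxed, and F10, a clotting factor gene, read 212 against 301 and 332 on design C and 75.2 against 55.6 and 70.1 on design A. The knockout stood 1.11-fold from floxed/deleted and on the low side of wild type/floxed for Hnf4a itself, as given above.

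In floxed/deleted, 13 of the 23 products were lowest by any amount, the pool in which Gata4, Gata6 and Hnf4a also read lowest on their brightest probe sets. Over all 12442 measured genes, 3429 were lowest there by any amount. The median of the products in that pool was -0.37 from the mean of the others, a difference taken after the member values were seen. With 1 of 23 at least 1.5-fold lower (Fga, a fibrinogen gene) and 1 higher (Spp2, a secreted phosphoprotein gene), few products stood apart there. The knockout values enter this median, and between the controls alone it was -0.05.

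**Figure D3:**
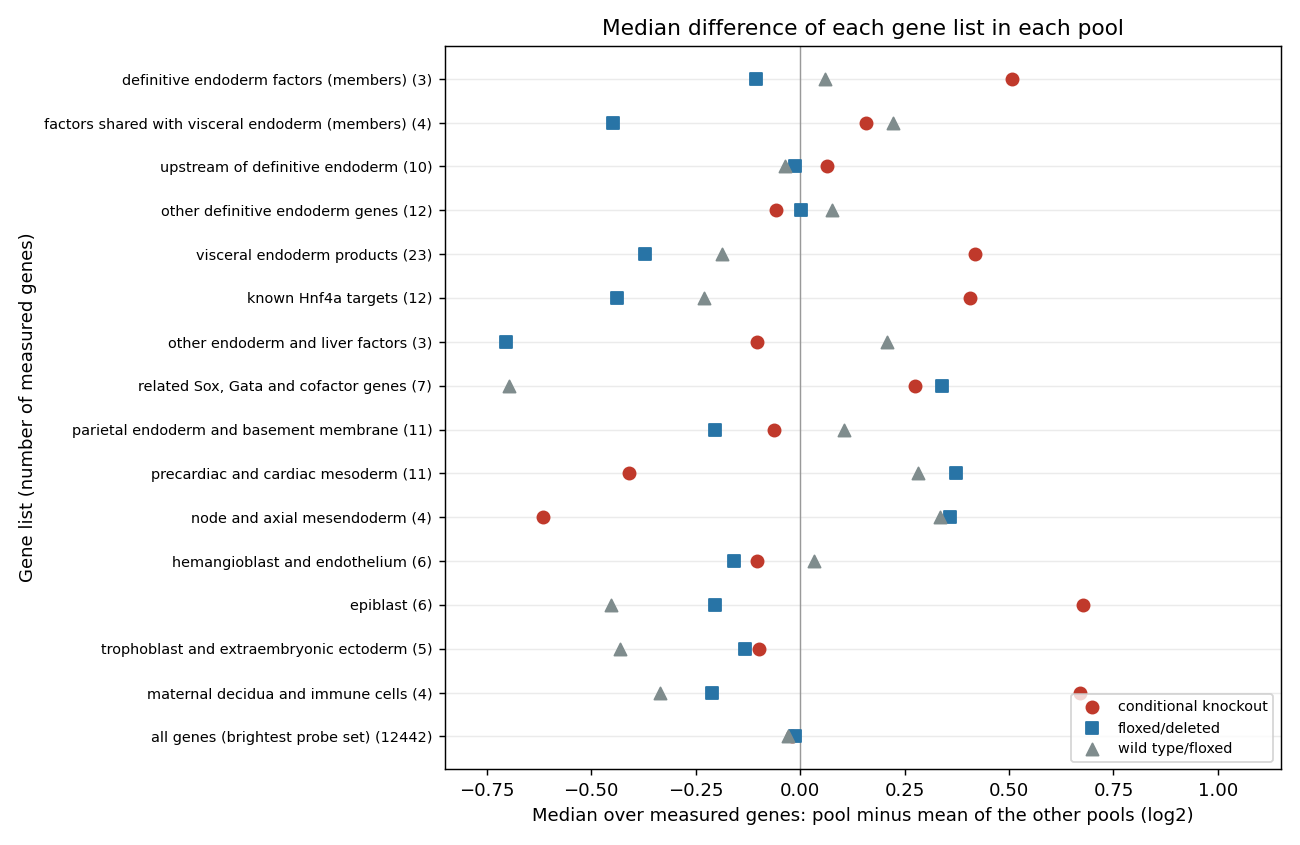
Median over measured genes of the log2 difference between a pool and the mean of the other pools, for each gene list, with the number of measured genes in brackets. Visceral endoderm products stand at 0.42 in the knockout, the shared factors at 0.16 in the knockout and -0.45 in floxed/deleted, and all genes lie near 0. The floxed/deleted values enter both medians of the shared factors, and with wild type/floxed as the only control their knockout median was -0.012.

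Other tissues that use these factors did not share one pattern with them. Of 11 measured precardiac and cardiac genes, which use Gata4, Gata5 and Gata6, 4 were at least 1.5-fold lower in the knockout and 1 higher, with a median of -0.41. The lower ones were led by Tbx20 (at least 3.65-fold, and between the controls on its other probe set), Smarcd3 (3.12-fold) and Tnnt2 (at least 1.59-fold), and the higher one was Myl4 (at least 1.54-fold). The other Smarcd3 probe sets above the floor in all pools did not share its fold, at 183 in the knockout against 217 and 403, and at 175 against 111 and 233. The 5 fixed precardiac markers summed to 818 in the knockout against 1304 and 1327, with Nkx2-5 below the floor in all pools. Of 4 measured node genes, the tissue that shares Foxa2, Foxj1 (at least 2.44-fold) and Shh (at least 1.58-fold) were lower in the knockout while Foxa2 was not. Of the 5 node markers, 3 had a probe set, and the third, Chrd, was below the floor in all pools. Among 11 measured parietal endoderm and basement membrane genes, which share Gata6 and Sox17, 1 was lower in the knockout (Fst, 1.84-fold) and 2 higher (Pga5, 1.81-fold, and Sparc, 1.57-fold). Sparc was also 1.70-fold lower in floxed/deleted than in the nearer pool, at 262, 98.4 and 167 in the order used above.

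Of 6 measured endothelial genes, a lineage that shares Hhex and Sox17, 1 was higher in the knockout (Etv2, 1.51-fold), 1 higher in floxed/deleted (Sox18) and 1 higher in wild type/floxed (Flt1, 2.60-fold). Their other probe sets went against these calls for Flt1, at 170 in the knockout against 107 and 151 and at 72.4 against 62.3 and 72.6, and for Sox18, at 39 against 59.5 and 96.2 and at 66.3 against 19 and 42.3. The endothelial markers Cdh5 and Tie1 were below the floor in all pools. Of 6 measured epiblast genes 3 were higher in the knockout, Utf1 (2.53-fold), Sox2 (2.17-fold) and Dnmt3b (1.64-fold). All 6 were highest there by any amount, with a median log2 difference of 0.68, beside 0.42 for the visceral endoderm products. The 3 fixed epiblast markers summed to 4258 in the knockout, 2298 in floxed/deleted, and 1915 for wild type/floxed. A high knockout reading was thus not particular to visceral endoderm products. The dimmer Utf1 probe sets on design C were lowest in the knockout, at 97.7 against 126 and 109 and at 42.6 against 72.5 and 102. Of 5 trophoblast genes 1 was higher in the knockout (Esrrb, 2.18-fold), 1 in floxed/deleted (Tfap2c, 1.68-fold) and 1 in wild type/floxed (Ascl2, at least 1.78-fold). Of 4 maternal and immune genes 2 were higher in the knockout (C1qb, at least 2.01-fold, and Laptm5, 1.65-fold) and 1 was lower in wild type/floxed, Laptm5 again. Krt19, whose promoter drives Cre, read 232 in the knockout, 97.6 in floxed/deleted, and 119 for wild type/floxed. The part of these tissues in the member values was not tested.

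Of 7 measured relatives and cofactors of the members, 3 were at least 1.5-fold lower in wild type/floxed (Zfpm2, Gata3 and Gata1), 2 were higher in floxed/deleted (Zfpm2 and Sox18) and 1 was higher in the knockout (Gata3). Zfpm2, a cofactor that binds Gata4, read 353 in the knockout, 840 in floxed/deleted, and 101 for wild type/floxed on design C, while its other measured probe set read 27.3, 120 and 115. Zfpm1, the cofactor of Gata1, read 553, 465 and 376. Gata3, a trophoblast and sensory factor, read 487, 249 and 64.4 on a probe set of shared family sequence, and its 2 other probe sets were below the floor. Gata1, the erythroid factor, read 110, 101 and 8.2. Of the other endoderm and liver factors 3 of 13 were measured, none above the floor on all arrays, with Nkx2-1, a lung and thyroid factor, at least 1.74-fold lower in floxed/deleted and Foxq1, a forkhead gene, at least 2.66-fold higher in wild type/floxed.

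Likeness of pattern was described by the Euclidean distance between centred log2 values over the 3 pools, among 70 listed genes above the floor on all arrays. With 3 points per gene it carries little information. The genes nearest to Gata4 were the visceral endoderm receptor genes Cubn (distance 0.23; 3458 in the knockout, 1656 in floxed/deleted, and 2308 for wild type/floxed) and Amn (0.23) and the matrix gene Sparc (0.24). Those nearest to Gata6 were Apob (0.29), Col4a2 (0.30) and Smad2 (0.31). Nearest to Hnf4a were Lamb1 (0.05), Smad2 (0.06) and Col4a1 (0.07), all with small differences between pools. Nearest to the shared-sequence Foxa3 probe set were Rbp4 (0.09), Ihh (0.10) and Zfpm1 (0.11), and nearest to Sox17 were Spink1 (0.19), the atrial myosin gene Myl7 (0.20; 139 in the knockout against 213 in each control) and Krt8 (0.26).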

How the data were processed

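Total RNA of 3 embryo pools was measured on 9 arrays. The authors deposited 1 linear intensity per probe set and array. How probes were summarised, the scaling target and the genome build are not given in the sources used here, and the deposited arrays already shared a 2% trimmed mean. Array designs came from the sample titles, and for 2 control arrays from the file headers. Trimmed means were made equal within a design, values below the pooled median were set to it, and log2 was taken (Python 3.11.15, numpy 2.4.6, pandas 2.3.3). A probe set stood apart at 1.5-fold from both other pools. Genes were named from the platform annotation of probe sets with 1 symbol. Lists used the brightest measured probe set per gene, and 10 of 140 listed genes had none here. Beside the members and Ctnnb1 and Krt19, up to 3 genes per list and direction with the largest fold were named, with markers of tissues that share a member and the 3 nearest genes by pattern. Eomes, Lhx1, Smad3, Cer1, Trh, Mttp, F10, Zfpm1 and the other genes below 1.5-fold were named after their values were seen. Members and lists were chosen with earlier results of these data known. The code of the call rules was run on simulated data with less noise than these arrays and larger changes in brighter probe sets. That run checked the code only and says nothing of how reliable the calls here are. In addition, 14 alternatives were run. Precision is limited by 1 array per pool and design.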

Additional observations from a re-analysis of the deposited data

How the results depend on the processing

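No paired analysis was possible because each pool had 1 array per design and no test was run, and for the same reason no replicate could be left out. Of 163 recomputed values under 14 alternatives, 132 moved by less than the spread used here (the SD of 0.67 of the log2 difference between the controls, divided by the square root of the number of genes, or 1.5 times for a count), and 31 moved by more. The causes were not tested. The 132 include values that a setting could not change, such as that of Foxa3 under other floors. They also include sign changes of small medians, such as the 0.16 of the shared factors. The tally is thus no measure of stability. Suffixed probe sets are those of suffix s, f, g, i or r, not all of which mark shared sequence. The knockout median of the definitive endoderm factors, 0.51, became 0.073 with the floor at the 70th percentile and 0.0066 with Foxa2 among the shared factors. It was 0.13 without suffixed probe sets, on design A alone or with Hhex among the definitive endoderm factors. It was 0.20 with the 30th percentile floor or no floor, and 0.22 with wild type/floxed as the only control. The knockout median of the shared factors, 0.16, changed sign to -0.13 on design A alone, -0.012 with wild type/floxed as the only control, -0.0042 with quantile normalization and -0.0038 with the mean over all probe sets. The median of the definitive endoderm factors between the controls, 0.20, changed sign to -0.12 with the mean over all probe sets and -0.22 with the floor at the 30th percentile or with no floor. It was -0.42 without suffixed probe sets or on design A alone, and -0.44 with Sox17 among the shared factors. The control median of the shared factors, -0.49, became 0.0048 with the mean over all probe sets of a gene, which averages the disagreeing Gata6 readings. The count of members lower in the knockout, 1, was 0 with equal medians, without suffixed probe sets or at 2-fold. It was 2 with the 30th percentile floor and 4 with no floor. The count lower in floxed/deleted, 3, was 0 with the 70th percentile floor, 5 with no floor and 1 at 2-fold. The count higher in floxed/deleted, 1, was 4 with the 30th percentile floor or no floor. It was 0 with equal medians, quantile normalization, the 70th percentile floor, design A alone, 2-fold, or without suffixed probe sets. In wild type/floxed, 1 was lower and 2 were higher with the 30th percentile floor or no floor, against 0 and 0. The number of measured member probe sets changed with the floor. Shares over all probe sets were not computed under these settings, so the altered counts cannot be read against a background. Weak signal limits Foxa1, Gata5 and the second Foxa3 probe set, below the floor in all pools, and Hhex, above it in 1.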
